A study of Rattus norvegicus with 5 samples.

Results

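Leucine-rich repeat membrane proteins form and organise contacts between neurons. The genes described here are the 7 found of 10 listed members, namely Lingo1, Lingo2, Tpbg, Lrrtm1, Lrrtm3, Slitrk1 and Slitrk5. They were found by gene symbol in the authors' deposited comparison of 12054 genes, and their read counts were taken by Ensembl identifier from count tables of 32285 genes. Lrrtm2, Lrrc4 and Slitrk4 had no match by symbol and were not analysed here. The list was drawn up with earlier results of these data known, and was chosen by gene family and by the fold changes of Lingo2 and Tpbg between the neuron types. The difference of each member between the neuron types is therefore a description and carries no test.

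The counts come from 5 RNA sequencing libraries of rat striatal neurons. Striatomesencephalic neurons, which send their axons to the midbrain and form the direct pathway, gave 2 libraries. Striatopallidal neurons, which send their axons to the pallidum and form the indirect pathway, gave 3 libraries. In both groups a fluorescent tracer placed in the target region marked the neurons from their axon endings, and single marked cells were cut out by laser. The strain, age and number of the rats, the number of cells per library and whether each library is a different animal are not stated in the labels, so the spread between libraries may be technical. No genotype or treatment apart from the tracer is given.

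Leucine-rich repeats are short folded units that stack into a curved surface on the outside of the cell, and that surface binds other proteins. Lingo1 joins the Nogo receptor complex that restrains axon growth, and it also acts in oligodendrocytes, where it holds back myelination; Lingo2 is its paralog. Tpbg, the trophoblast glycoprotein, is known as an antagonist of Wnt signalling. Proteins of the Lrrtm family sit on the postsynaptic side and bind neurexins across the cleft, and proteins of the Slitrk family bind receptor tyrosine phosphatases of the LAR group. In mice, loss of Slitrk5 gives excessive grooming and altered corticostriatal transmission.

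Promoters are shown for the 3 members whose libraries did not overlap between the neuron types. The sequences are from RefSeq, build GRCr8 of the rat genome, which is not the build named for the counts. Each is the 250 bases before the annotated start, written along the strand of the gene. Lingo2 lies at chr5:55310913-55311162 on the minus strand, Tpbg at chr8:95673743-95673992 on the plus strand and Lrrtm3 at chr20:24514054-24514303 on the plus strand. Capitals mark matches, on either strand, to motifs of promoters. These were the TATA box with the letters TATAAA, the GC box with the letters GGGCGG, the CCAAT box with those letters themselves, and the core of the cAMP response element with the letters TGACG.
Lingo2: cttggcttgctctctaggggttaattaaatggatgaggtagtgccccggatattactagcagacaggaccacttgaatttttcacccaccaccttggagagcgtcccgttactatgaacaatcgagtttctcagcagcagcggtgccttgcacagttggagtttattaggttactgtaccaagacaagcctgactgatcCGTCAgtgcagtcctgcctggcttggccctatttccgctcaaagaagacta
Tpbg: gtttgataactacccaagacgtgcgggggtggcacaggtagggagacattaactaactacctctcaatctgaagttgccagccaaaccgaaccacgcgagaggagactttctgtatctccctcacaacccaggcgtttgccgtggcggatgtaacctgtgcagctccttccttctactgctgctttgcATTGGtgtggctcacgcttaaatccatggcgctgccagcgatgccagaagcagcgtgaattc
Lrrtm3: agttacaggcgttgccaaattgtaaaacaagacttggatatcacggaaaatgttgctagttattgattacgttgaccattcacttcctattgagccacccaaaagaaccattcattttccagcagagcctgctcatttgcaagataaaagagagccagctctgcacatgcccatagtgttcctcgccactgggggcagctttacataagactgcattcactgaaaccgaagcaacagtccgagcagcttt

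The Lingo2 window held 1 reversed core, beginning at base -51, and the Tpbg window 1 reversed CCAAT box, beginning at base -62. The Lrrtm3 window held none of these 4 motifs. Of 33469 rat promoters of this length, 18.2% held the core, 34% the CCAAT box, 30.5% the GC box and 12.9% the TATA box. The E box, with the letters CANNTG, which is not capitalised, occurred 2 times in the Lingo2 window, 2 times in the Lrrtm3 window and not in the Tpbg window, against 65.5% of all promoters with at least 1. No 2 of the matches in these windows overlapped. GC content was 49.2% for Lingo2, 53.6% for Tpbg and 44.8% for Lrrtm3, beside a median of 51.2% over all promoters. Such matches of letters describe the windows and say nothing of a factor bound there.

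Library totals ran from 20845178 to 24805062 counts. Levels below are CPM, which are counts relative to the depth of their library, further scaled by TMM, a method that sets the bulk of genes level between libraries. The labels were checked on lists of pathway markers, which were chosen with earlier results of these data known. The summed level of 6 direct pathway markers was 4448 and 4966 CPM in striatomesencephalic neurons, against 2183, 2237 and 1565 CPM in striatopallidal neurons. That of 6 indirect pathway markers was 1764 and 1977 CPM in striatomesencephalic neurons, against 5623, 8041 and 6487 CPM in striatopallidal neurons. Each group thus carried more RNA of its own pathway, and RNA of the other pathway's markers was present in every library. By single marker, Ebf1 and Chrm4 of the direct pathway overlapped between the groups, while all 6 of the indirect pathway did not. Markers shared by all spiny projection neurons (9 genes) summed to 12584 and 18000 CPM in striatomesencephalic neurons, against 18498, 23784 and 19427 CPM in striatopallidal neurons. Of markers of other cells, the astrocyte gene Gfap did not overlap between the groups. It stood at 10.96 and 3.77 CPM in striatomesencephalic neurons, against 213, 226 and 82.3 CPM in striatopallidal neurons. Of the 8 astrocyte markers, Gfap and Aqp4 lay lower in both striatomesencephalic libraries than in all striatopallidal ones. Aldh1l1 and Aldoc lay higher, but by small margins. For Aldoc, striatomesencephalic replicate 2 stood at 132 CPM against 131.3 CPM in striatopallidal replicate 1. For Aldh1l1, striatomesencephalic replicate 1 stood at 1.79 CPM against 1.36 CPM in striatopallidal replicate 1. The 8 markers summed to 1311 and 1145 CPM in striatomesencephalic neurons, against 1342, 1290 and 1209 CPM in striatopallidal neurons. The part of astrocytes in the levels of the members was not tested. In pooled cells, fewer cells of a type and less RNA per cell cannot be told apart. Striatopallidal replicate 2 stood apart from the rest. It was the highest library for 28.1% and the lowest for 31.2% of the 13811 genes tested, and its TMM factor was 0.774 against 1.02 to 1.14 in the others.

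Lingo2 was higher in striatomesencephalic than in striatopallidal neurons. It had 2582 and 2510 counts in striatomesencephalic replicates 1 and 2, against 654, 733 and 424 counts in striatopallidal replicates 1, 2 and 3. As CPM, these were 118 and 109 CPM in striatomesencephalic neurons, against 24.1, 38.2 and 17.8 CPM in striatopallidal neurons. Both striatomesencephalic libraries lay above all striatopallidal ones, and the lower of them was 2.85 times the highest striatopallidal library. The striatomesencephalic mean was 114 ± 6.75 CPM (SD, n = 2) and the striatopallidal mean 26.7 ± 10.4 CPM (SD, n = 3). The log2 fold change of striatomesencephalic minus striatopallidal libraries was 2.09 ± 0.54 (SE).

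Lingo1, the paralog best known from the Nogo receptor complex, did not follow Lingo2. It stood at 34.8 and 50.3 CPM in striatomesencephalic neurons, against 28.8, 72.6 and 24.3 CPM in striatopallidal neurons. The groups overlapped, and striatopallidal replicate 2 was the highest of the 5 libraries. The log2 fold change was 0.02 ± 0.70 (SE) with all 5 libraries and 0.67 without striatopallidal replicate 2. Because Lingo1 is also used by oligodendrocytes, the summed level of 10 oligodendrocyte markers is set beside it: 5743 and 7334 CPM in striatomesencephalic neurons, against 6371, 9122 and 5021 CPM in striatopallidal neurons. That sum too was highest in striatopallidal replicate 2, and none of the 10 markers was at 0 in any library. The part of these cells in the Lingo1 level was not tested.

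Tpbg had the largest log2 fold change of the 7 members and the smallest spread within each group. It had 2889 and 2988 counts in striatomesencephalic neurons, against 582, 325 and 547 counts in striatopallidal neurons. As CPM, these were 133 and 129.6 CPM in striatomesencephalic neurons, against 21.4, 16.9 and 22.9 CPM in striatopallidal neurons. The striatopallidal libraries lay within 1.35-fold of each other, and the lower striatomesencephalic library was 5.66 times the highest of them. The striatomesencephalic mean was 131 ± 2.04 CPM (SD, n = 2) and the striatopallidal mean 20.4 ± 3.12 CPM (SD, n = 3), which gives a log2 fold change of 2.68 ± 0.48 (SE). For scale, the direct pathway dopamine receptor gene Drd1 had a striatomesencephalic mean of 944 ± 169.6 CPM (SD, n = 2) and a striatopallidal mean of 434 ± 66.9 CPM (SD, n = 3), which gives a log2 fold change of 1.12 ± 0.31 (SE). Pdyn, the dynorphin precursor, had a log2 fold change of 1.86 ± 0.32 (SE). Over the same marker lists, the log2 fold changes ran from 0.62 to 2.04 (Isl1) for direct pathway markers and from -2.69 (Penk) to -1.07 for indirect pathway markers.

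**Figure D1:**
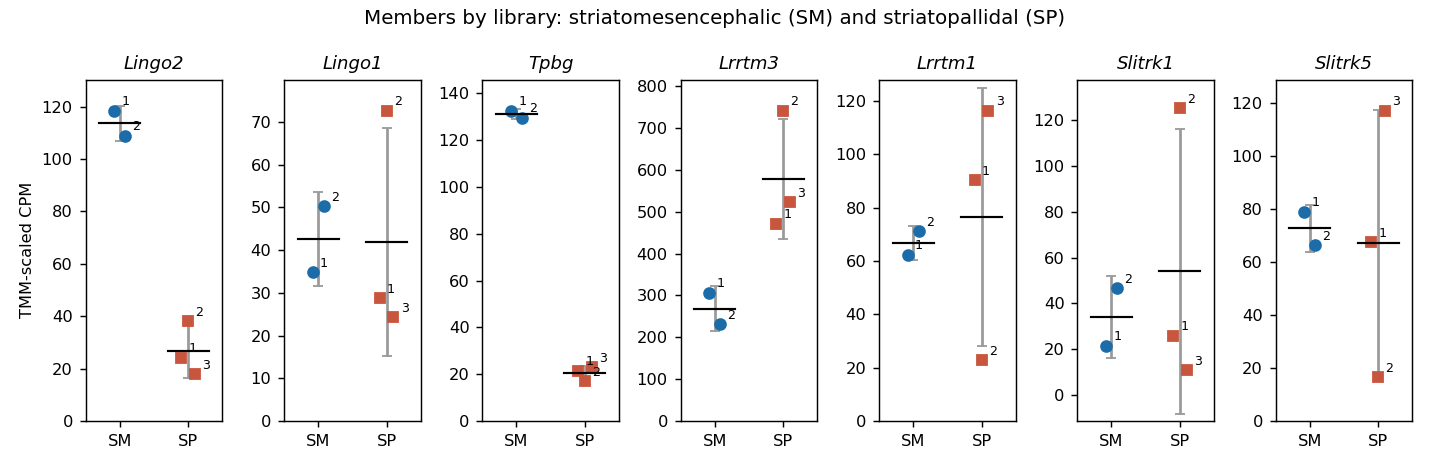
TMM-scaled CPM of each member in each library (circles, striatomesencephalic, SM; squares, striatopallidal, SP), with the replicate number beside each point, the group mean as a black line and the SD as a grey bar; each panel has its own linear axis. Lingo2 and Tpbg sit at 109 to 133 CPM in striatomesencephalic and at 16.9 to 38.2 CPM in striatopallidal libraries, and the wide bars of Slitrk1, Slitrk5 and Lrrtm1 come with striatopallidal replicate 2 at one end.

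The postsynaptic neurexin ligand Lrrtm3 ran the other way. It stood at 306 and 231 CPM in striatomesencephalic neurons, against 472, 742 and 523 CPM in striatopallidal neurons. Both striatomesencephalic libraries lay below all striatopallidal ones. The striatomesencephalic mean was 269 ± 53.1 CPM (SD, n = 2) and the striatopallidal mean 579 ± 143 CPM (SD, n = 3), which gives a log2 fold change of -1.11 ± 0.37 (SE). In the RefSeq annotation Lrrtm3 lies wholly inside Ctnna3, an alpha catenin gene, and whether the reads were counted by strand is not stated in the labels. Ctnna3 itself stood at 1.74 and 7.77 CPM in striatomesencephalic neurons, against 9.47, 2.66 and 4.74 CPM in striatopallidal neurons.

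Lrrtm1, of the same family, had overlapping groups. It stood at 62.3 and 71.2 CPM in striatomesencephalic neurons, against 90.2, 22.8 and 116 CPM in striatopallidal neurons. Without striatopallidal replicate 2, which was the lowest library, the log2 fold change was -0.64, against -0.19 ± 0.72 (SE) with all 5 libraries. Lrrtm1 lies inside another alpha catenin gene, Ctnna2. Ctnna2 stood at 12.9 and 39.5 CPM in striatomesencephalic neurons, against 27.8, 18.9 and 48.8 CPM in striatopallidal neurons. The part of such overlapping reads in either Lrrtm level was not tested. In the same annotation Tpbg, Slitrk1 and Slitrk5 overlap no other gene, Lingo2 overlaps non-coding genes and a pseudogene, and Lingo1 overlaps non-coding genes and an uncharacterised protein-coding gene, none of which was analysed here.

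The Slitrk genes varied most among the striatopallidal libraries. Slitrk1 stood at 21.5 and 46.6 CPM in striatomesencephalic neurons, against 25.9, 125 and 10.8 CPM in striatopallidal neurons. Striatopallidal replicate 2 was 11.6 times striatopallidal replicate 3. The log2 fold change of -0.66 ± 1.06 (SE) became 0.88 without striatopallidal replicate 2, and it was 0.04 with limma voom on all 5 libraries. Slitrk5 stood at 79.0 and 66.3 CPM in striatomesencephalic neurons, against 67.4, 16.5 and 117 CPM in striatopallidal neurons, with striatopallidal replicate 2 the lowest this time. Its log2 fold change was 0.12 ± 0.79 (SE), -0.35 without striatopallidal replicate 2 and 0.79 without striatopallidal replicate 3. The lowest count of any member in any library was 258, where counting error alone is 6.23%, so the differences among these libraries are much wider than counting error.

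Ratios between members within one library do not depend on how the libraries are scaled. They are not corrected for gene length, so only their change from library to library can be read. The count of Lingo2 relative to Lingo1 was 3.41 and 2.17 in striatomesencephalic neurons, against 0.836, 0.525 and 0.730 in striatopallidal neurons. The count of Tpbg relative to Lrrtm3 was 0.433 and 0.561 in striatomesencephalic neurons, against 0.0455, 0.0228 and 0.0439 in striatopallidal neurons. Both ratios separated the groups, with every striatomesencephalic library above every striatopallidal one. Lingo2 and Tpbg were listed for their fold changes between these groups, so the separation carries the same contrast and adds no support. The count of Lingo2 relative to Tpbg was 0.894 and 0.840 in striatomesencephalic neurons, against 1.12, 2.26 and 0.775 in striatopallidal neurons, so these groups overlapped. The count of Slitrk1 relative to Slitrk5 was 0.272 and 0.704 in striatomesencephalic neurons, against 0.384, 7.61 and 0.0924 in striatopallidal neurons, with striatopallidal replicate 2 far from the rest.

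**Figure D2:**
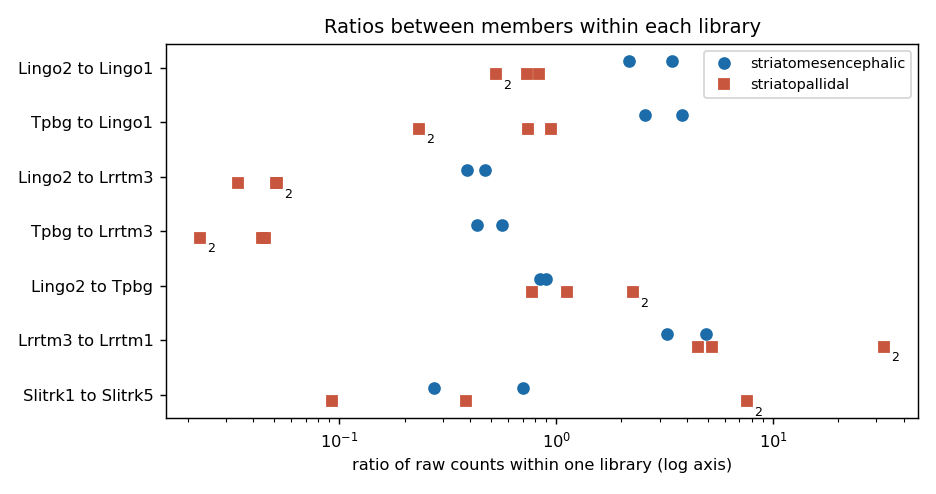
Ratio of raw counts of 2 members within each library, on a log axis (circles, striatomesencephalic; squares, striatopallidal, with replicate 2 numbered). The ratios of Lingo2 or Tpbg to Lingo1 or Lrrtm3 fall into separate groups, while Lrrtm3 to Lrrtm1 and Slitrk1 to Slitrk5 set striatopallidal replicate 2 apart. Lingo2 and Tpbg were listed for their fold changes, so the separation adds no support.

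Set against the transcriptome, 3 of the 7 members had groups that did not overlap, beside 21.6% of the 13811 genes tested. Of these, Lingo2 and Tpbg lay above, as did 10.4% of all genes, and Lrrtm3 lay below, as did 11.2% of all genes. The contrast was known when the members were listed, so nothing is read from these counts. Among 10166 genes with a mean of at least 5 CPM, 190 had a log2 fold change as high as that of Tpbg or higher, 364 as high as that of Lingo2 or higher, and 1457 as low as that of Lrrtm3 or lower. Over all tested genes 47.4% had a positive log2 fold change, with a median of -0.06, and 4 of the 7 members had one, with a median of 0.02. With limma voom 6 of the 7 members had a positive value, Lrrtm1 and Slitrk1 each at 0.04.

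**Figure D3:**
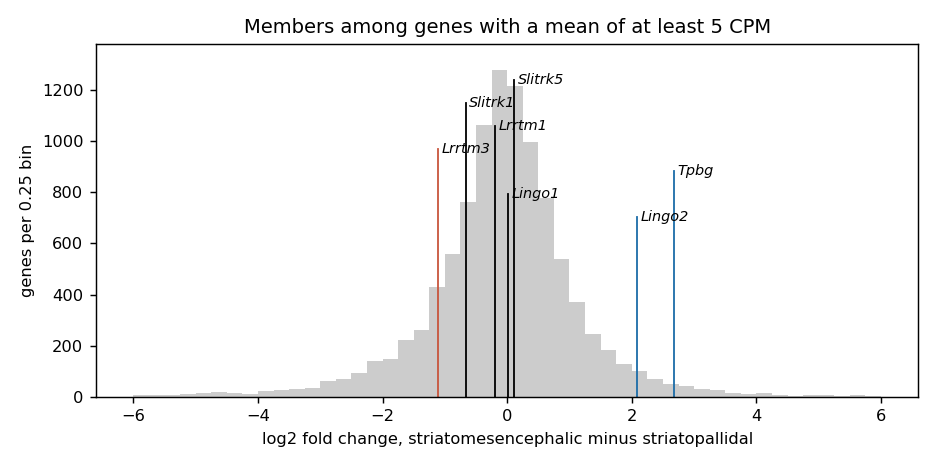
Number of genes per bin of log2 fold change (striatomesencephalic minus striatopallidal), for genes with a mean of at least 5 CPM, with each member as a line whose height has no meaning; genes beyond the ends of the axis are not drawn. Tpbg at 2.68 and Lingo2 at 2.09 stand in the right tail, Lrrtm3 at -1.11 on the left flank, and the other 4 members near the centre.

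None of the 7 members passed an adjusted p of 0.05 in edgeR's quasi-likelihood test, where 0 of 13811 genes (0%) passed and the smallest adjusted p of any gene was 0.779. At an unadjusted p below 0.05 there were 839 genes, of which 405 were higher and 434 lower in striatomesencephalic libraries. DESeq2 called 226 genes (1.64%), of which 87 (0.63%) were higher in striatomesencephalic libraries, Lingo2 and Tpbg among them, and 139 (1.01%) lower. The exact test of edgeR called 45 genes (0.326%), of which 31 (0.224%) were higher, Tpbg among them, and 14 (0.101%) lower. limma voom called 0 genes (0%). These calls rest on the contrast behind the choice of members and are not separate support. The authors' deposited table, whose fold changes run as striatopallidal minus striatomesencephalic, gives a log2 fold change of -2.21 for Lingo2, -2.81 for Tpbg and 1.03 for Lrrtm3. Of its 12054 genes, 0 (0%) passed an adjusted p of 0.05 in the authors' deposited table.

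The fold changes of Lingo2, Tpbg and Lrrtm3 kept their sign whichever library was left out. That of Lingo2 ran from 1.87 to 2.43, that of Tpbg from 2.56 to 2.77 and that of Lrrtm3 from -1.32 to -0.89 on the log2 scale. The groups of these genes do not overlap, so a constant sign follows from their values and adds no support. The log2 fold changes of the other 4 members crossed 0 as libraries were left out. Lingo1 ran from -0.27 to 0.67, Lrrtm1 from -0.64 to 0.24, Slitrk1 from -1.32 to 0.88 and Slitrk5 from -0.35 to 0.79.

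**Figure D4:**
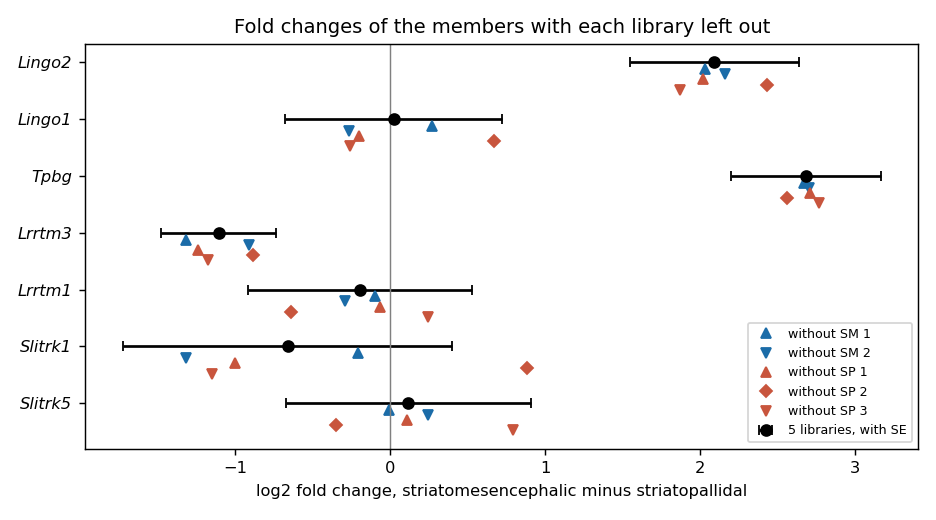
Log2 fold change of each member (striatomesencephalic minus striatopallidal) with all 5 libraries (black, with SE) and with each library left out (coloured symbols below it). Lingo2, Tpbg and Lrrtm3 stay on one side of 0, and Slitrk1 moves from -0.66 to 0.88 when striatopallidal replicate 2 is left out.

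The genes whose levels ran most like those of Lingo2 and Tpbg were found by the root mean square difference of centred log2(CPM + 1) values over the 5 libraries, among 10153 genes. For Lingo2 these were Arhgef1 (0.198), Galnt18, a glycosyltransferase gene (0.243), and Arl6ip6 (0.279), the numbers being that difference. Galnt18 stood at 144 and 95.4 CPM in striatomesencephalic neurons, against 35.4, 49.0 and 22.9 CPM in striatopallidal neurons. For Tpbg they were Cmip (0.122), the leak potassium channel gene Kcnk13 (0.135) and Prkch, a protein kinase C (0.265). Cmip stood at 110.5 and 119.9 CPM in striatomesencephalic neurons, against 19.8, 18.5 and 21.6 CPM in striatopallidal neurons. Lingo2 and Tpbg differed from each other by 0.539, which placed Tpbg as rank 81 for Lingo2 and Lingo2 as rank 64 for Tpbg. With 5 libraries many genes share a profile, and a short distance says no more than that.

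Other members of these families are given as paralogs, whatever their values, with Slitrk6 further below. Lrrtm4 stood at 13.0 and 20.5 CPM in striatomesencephalic neurons, against 51.6, 38.7 and 32.3 CPM in striatopallidal neurons, so both striatomesencephalic libraries lay below the striatopallidal ones, as for Lrrtm3, with a log2 fold change of -1.28 ± 0.65 (SE). Lingo3 stood at 1.51 and 10.2 CPM in striatomesencephalic neurons, against 4.02, 3.33 and 2.05 CPM in striatopallidal neurons, which overlapped. Slitrk3 stood at 18.9 and 30.3 CPM in striatomesencephalic neurons, against 26.1, 7.55 and 128 CPM in striatopallidal neurons. As with Slitrk5, striatopallidal replicate 3 was the highest and striatopallidal replicate 2 the lowest library. Slitrk2 was low in all libraries, at 5.09 and 3.12 CPM in striatomesencephalic neurons, against 6.52, 2.66 and 4.99 CPM in striatopallidal neurons. Lrrc4c, the netrin-G ligand, was far more even, at 717 and 701 CPM in striatomesencephalic neurons, against 603, 1046 and 919 CPM in striatopallidal neurons. Lrrc4b of the same family was not even. It stood at 84.2 and 53.0 CPM in striatomesencephalic neurons, against 31.1, 14.3 and 142 CPM in striatopallidal neurons.

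Over a list of 61 other leucine-rich repeat membrane or secreted genes, 38 had a match and were tested. None passed in edgeR's quasi-likelihood test, and 1 higher and 3 lower had an unadjusted p below 0.05. Over all 13811 genes tested these were 405 higher and 434 lower. By sign, 14 were higher and 24 lower in striatomesencephalic libraries with a median log2 fold change of -0.36, beside -0.06 over all genes. Without striatopallidal replicate 2, 17 were higher and 21 lower with a median of -0.20. Both striatomesencephalic libraries lay above all striatopallidal ones for 1 of the 38 and below them for 7, beside 10.4% and 11.2% of all genes. DESeq2 called 1 of them, the adhesion receptor gene Adgra3 (adjusted p = 0.0431), beside 1.64% of all genes.

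The named genes of this list are those of largest size in either direction. Adgra3 had a log2 fold change of 4.18 ± 1.38 (SE), on 149 CPM in striatomesencephalic replicate 1 against 1.51 to 7.18 CPM in all other libraries, and 0.03 without that library. Lrig2 had 1.58 ± 0.68 (SE), and 0.40 without striatomesencephalic replicate 1. Slit1, an axon guidance ligand, had 1.02 ± 1.43 (SE), 0.52 without striatopallidal replicate 1, 0.48 without striatopallidal replicate 2 and 3.79 without striatopallidal replicate 3. Lgr4, a receptor for R-spondins, had 1.05 ± 1.14 (SE), 1.98 without striatomesencephalic replicate 1 and -2.39 without striatomesencephalic replicate 2. In the other direction, the adhesion gene Amigo2 had -5.85 ± 2.35 (SE). It stood at 1339 CPM in striatopallidal replicate 2 alone and at 6.51 to 14.0 CPM elsewhere, and the value was -0.68 without that library. Lgi3, a secreted protein gene, had -3.27 ± 1.18 (SE), at 3.81 and 3.12 CPM in striatomesencephalic neurons, against 13.2, 77.1 and 10.3 CPM in striatopallidal neurons. It was -1.76 without striatopallidal replicate 2. Lgr6 had -2.80 ± 1.84 (SE), and 1.43 without striatopallidal replicate 2. Slitrk6 had -1.75 ± 1.03 (SE), -3.07 without striatomesencephalic replicate 1 and -1.06 without striatomesencephalic replicate 2.

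Proteins that bind or act with these families were taken as a list of 30, of which 25 were tested. None passed in edgeR's quasi-likelihood test, and 1 higher and 1 lower had an unadjusted p below 0.05, beside 405 higher and 434 lower of all 13811 genes tested. By sign, 6 had a positive and 19 a negative log2 fold change, and their median was -0.40 beside -0.06 over all genes. Without striatopallidal replicate 2 these were 9 and 16, with a median of -0.04. The striatomesencephalic libraries lay above all striatopallidal ones for 1 of the 25 and below them for 4, beside 10.4% and 11.2% of all genes. DESeq2, the exact test of edgeR and limma voom called none of them.

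Gpc6, a glypican that carries heparan sulfate on the cell surface, had the largest positive value. It stood at 801 and 725 CPM in striatomesencephalic neurons, against 354, 368 and 338 CPM in striatopallidal neurons, which is a log2 fold change of 1.11 ± 0.29 (SE). Both striatomesencephalic libraries lay above all striatopallidal ones. The value was 1.04 to 1.19 whichever library was left out. Gpc6 was named for its size and its groups do not overlap, so a constant sign follows and adds no support. The phosphatase gene Ptprf had a log2 fold change of 0.66 ± 0.64 (SE), which ran from -0.06 without striatomesencephalic replicate 1 to 1.15 without striatomesencephalic replicate 2. The kinase gene Wnk1 had 0.33 ± 0.41 (SE), which ran from 0.16 without striatopallidal replicate 3 to 0.62 without striatopallidal replicate 2. The scaffold gene Dlg1 had 0.28 ± 0.40 (SE), which ran from 0.07 without striatopallidal replicate 2 to 0.51 without striatopallidal replicate 3.

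Kremen1, a receptor that curbs Wnt signalling, had a log2 fold change of -1.46 ± 0.51 (SE). It stood at 27.0 and 37.4 CPM in striatomesencephalic neurons, against 81.0, 83.2 and 102 CPM in striatopallidal neurons, with no overlap. Egfr, the receptor of epidermal growth factor, stood at 11.7 and 11.6 CPM in striatomesencephalic neurons, against 5.86, 116 and 17.9 CPM in striatopallidal neurons, and its log2 fold change was -0.04 without striatopallidal replicate 2. The log2 fold changes of Gipc1, whose protein binds Tpbg (-1.23 ± 1.03, SE), and Tnfrsf19, a co-receptor of Lingo1 (-1.19 ± 1.01, SE), rested on the same library, and without it they were 0.44 and 0.53. Among neurexins, the partners of Lrrtm proteins, Nrxn2 stood at 93.8 and 73.9 CPM in striatomesencephalic neurons, against 128, 162 and 144 CPM in striatopallidal neurons, again without overlap. Nrxn3 overlapped, with 805 and 815 CPM in striatomesencephalic neurons, against 673, 857 and 982 CPM in striatopallidal neurons. The Slitrk partner Ptprd overlapped as well, with 260.4 and 307 CPM in striatomesencephalic neurons, against 303, 554 and 266 CPM in striatopallidal neurons. Nrxn2, Nrxn3 and Ptprd were named for their role, after their values were seen.

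**Figure D5:**
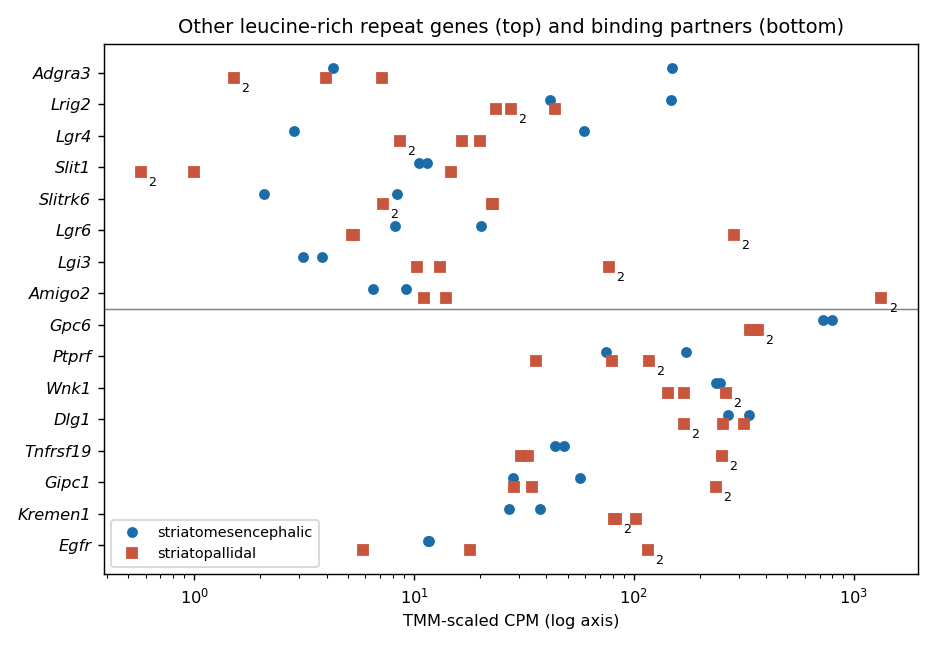
TMM-scaled CPM on a log axis for the genes of largest size in each direction, among other leucine-rich repeat genes (above the line) and binding partners (below it); circles are striatomesencephalic and squares striatopallidal libraries, with striatopallidal replicate 2 numbered. Gpc6 and Kremen1 separate the groups with tight points, while Amigo2, Lgr6, Egfr, Gipc1 and Tnfrsf19 have striatopallidal replicate 2 alone at the high end.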

How the data were processed

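Tracer-marked rat striatal neurons were captured by laser, and their poly(A) RNA was amplified with a kit for single cells, per the labels' protocols. The submitters' processing notes name TopHat2, HTSeq, edgeR, limma and build Rnor_6.0, without versions or roles. The authors deposited raw read counts per gene for each library, and these were the input of every fit. The authors' deposited comparison gives log2 fold changes and p-values for 12054 genes, and supplied the gene symbols, matched without regard to case. Amplified reads carried no molecular identifiers, so counting error is a lower limit.

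Counts were filtered by filterByExpr (13811 genes), scaled by TMM and tested with glmQLFit and glmQLFTest in edgeR 4.0.16 (R 4.3.3), with Benjamini-Hochberg adjustment over all genes and a threshold of 0.05. The SE is the fold change divided by the root of F. Alternatives were RLE, label or no scaling factors, no filter, DESeq2 1.42.0, the exact test of edgeR, limma voom (limma 3.58.1), each library left out, and a replicate block. Members and lists were chosen with earlier results of these data known. Named genes were all members, the 4 genes of largest log2 fold change in each direction of each related list with a mean of at least 5 CPM, and the 3 nearest profiles of Lingo2 and of Tpbg. Paralogs of the members, markers, Nrxn2, Nrxn3 and Ptprd were named in addition. Between libraries of one group, chi-square per degree of freedom ran from 164 to 520, so none was taken for a repeat of another. Promoters came from RefSeq (GRCr8), where all 7 members had an entry. A further binding partner is not reported here.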

Additional observations from a re-analysis of the deposited data

How the results depend on the processing

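The number of genes called was 0 with edgeR's quasi-likelihood test under each scaling, without the filter, without any one library and with limma voom. It was 226 with DESeq2, where 2 members and 1 other leucine-rich repeat gene were called, and 45 with the exact test of edgeR, where 1 member was called. Over 13 alternatives, Lingo2 ran from 1.87 to 2.43 and Tpbg from 2.56 to 2.78 on the log2 scale. With single libraries left out, the members with a positive value numbered 3 to 4 (6 with limma voom on all libraries), other leucine-rich repeat genes with a negative value 21 to 28, and binding partners 14 to 21. These last 2 counts were chosen after seeing the data. Without any scaling factor, 16 binding partners had a negative value in place of 19. Replicate numbers are shared between the groups. Between libraries of the same number, correlations of deviations from the group means were -0.0194 for number 1 and -0.0342 for number 2. The deviations of the 2 striatomesencephalic libraries mirror each other, so these values cannot decide whether the numbers pair the libraries. With the replicate block 0 genes were called and 465 had an unadjusted p below 0.05, in place of 839, and the log2 fold change was 1.90 for Lingo2 and 2.78 for Tpbg. The spread between libraries, a biological coefficient of variation of 0.822, limits what 5 libraries can show.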

Other observations

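Striatopallidal replicate 2 was the highest or the lowest of the 5 libraries for 6 of the 7 members. It was highest for Lingo1, Lrrtm3 and Slitrk1 and lowest for Tpbg, Lrrtm1 and Slitrk5, and it lay within the range of the others for Lingo2. Over all 13811 genes tested it was highest for 28.1% and lowest for 31.2%. Slitrk1 in that library was 2.69 times the next highest library, and Slitrk5 was 0.248 times the next lowest. Without it, the mean of Lrrtm1 was 66.8 CPM in striatomesencephalic and 103 CPM in striatopallidal libraries, and that of Lingo1 was 42.5 CPM in striatomesencephalic and 26.6 CPM in striatopallidal libraries.

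Markers of other cells in the same libraries, taken as lists, are given as summed CPM. Astrocyte markers (8 genes) stood at 1311 and 1145 CPM in striatomesencephalic neurons, against 1342, 1290 and 1209 CPM in striatopallidal neurons. Microglial markers (5 genes) stood at 34.3 and 20.2 CPM in striatomesencephalic neurons, against 91.6, 47.0 and 29.6 CPM in striatopallidal neurons. Vascular markers (6 genes) stood at 34.2 and 80.7 CPM in striatomesencephalic neurons, against 52.8, 160.5 and 55.7 CPM in striatopallidal neurons. Interneuron markers (5 genes) stood at 58.1 and 81.0 CPM in striatomesencephalic neurons, against 79.2, 80.8 and 120.5 CPM in striatopallidal neurons. Precursors of oligodendrocytes (3 genes) stood at 53.5 and 87.4 CPM in striatomesencephalic neurons, against 69.1, 50.8 and 90.3 CPM in striatopallidal neurons. Each of these sums overlapped between the groups, but single markers within them did not. Gfap lay lower in both striatomesencephalic libraries, as given above, and so did Aqp4, at 50.6 and 29.9 CPM in striatomesencephalic neurons, against 78.5, 82.1 and 58.5 CPM in striatopallidal neurons. Sst, Chat, Tmem119, Flt1 and Tek also lay lower in both striatomesencephalic libraries than in all striatopallidal ones, and Aldh1l1, Aldoc, Slc5a7 and Calb2 lay higher. Some of these margins were small, as given above for Aldh1l1 and Aldoc. For Flt1, striatomesencephalic replicate 2 stood at 32.1 CPM against 35.7 CPM in striatopallidal replicate 1. Slc5a7 stood at 15.3 and 7.85 CPM in striatomesencephalic neurons, against 3.79, 2.86 and 1.76 CPM in striatopallidal neurons, and Calb2 at 2.34 and 12.02 CPM in striatomesencephalic neurons, against 0.442, 0.469 and 0.0838 CPM in striatopallidal neurons. Nrgn and Rorb, the tested genes of the list for glutamatergic neurons, did not overlap and ran in opposite directions. Nrgn stood at 74.4 and 126 CPM in striatomesencephalic neurons, against 397.5, 196.5 and 328 CPM in striatopallidal neurons, and Rorb at 124 and 54.3 CPM in striatomesencephalic neurons, against 19.7, 17.7 and 19.1 CPM in striatopallidal neurons. The part of any of these cells in the levels of the members was not tested.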
